A study of Mus musculus with 8 samples.

Results

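The CELF and RBFOX families were followed in the mouse hippocampus across age. Every array probe that was not a control and whose accession belongs to Celf1, Celf2, Celf3, Celf4, Celf5, Celf6, Rbfox1, Rbfox2 or Rbfox3 was taken, which gave 19 of 39429 probes for 9 of 19751 named genes. The gene set was selected on the age difference of these same arrays (that of Celf3 above all was known beforehand), so the differences are described here and not tested. Wild type C57BL/6J mice without treatment, kept in their home cage, were compared at 3 months of age (3M, young adult) and at 29 months (29M, close to the end of the life span). The whole hippocampus was dissected by hand, and RNA of 4 samples per age was measured with Cy3 on 1 array each. The labels do not say whether each sample is 1 animal, so the spread between samples may be partly technical. The 8 arrays lay on 3 slides, each with both ages: 3M-1, 29M-3 and 29M-4 on slide 1, 3M-2 and 29M-2 on slide 2, and 3M-3, 3M-4 and 29M-1 on slide 3. The sex of the mice is not given, and the aged mice had been purchased old from a supplier and kept for further months.

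CELF and RBFOX proteins bind RNA and decide, together with other factors, whether an alternative exon is kept in the mature messenger RNA. CELF proteins recognise stretches rich in U and G, and also act on the stability and translation of messenger RNA in the cytoplasm. RBFOX proteins recognise the short element UGCAUG in introns and tend to promote an exon that lies upstream of it and to repress one that lies downstream. Celf1 and Celf2 are active in many tissues, whereas Celf3, Celf4 and Celf5 are mostly found in the nervous system. Rbfox3 encodes NeuN, the nuclear antigen used to stain neurons. In bulk tissue, fewer cells that carry a transcript and less of the transcript per cell cannot be told apart.

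Celf3 was the gene whose level separated the ages, and the starts of its transcripts are shown for that reason. RefSeq (GRCm38.p6) gives 7 start windows of 300 bases for Celf3, from 250 bases before to 50 after a start, on the plus strand of chromosome 3. A window of the upstream group (chr3:94478216-94478515) and one of the downstream group (chr3:94484077-94484376) are printed 5′ to 3′. Capitals mark the string GGGCGG, the core of the GC box bound by SP factors, on either strand.
Celf3 upstream start: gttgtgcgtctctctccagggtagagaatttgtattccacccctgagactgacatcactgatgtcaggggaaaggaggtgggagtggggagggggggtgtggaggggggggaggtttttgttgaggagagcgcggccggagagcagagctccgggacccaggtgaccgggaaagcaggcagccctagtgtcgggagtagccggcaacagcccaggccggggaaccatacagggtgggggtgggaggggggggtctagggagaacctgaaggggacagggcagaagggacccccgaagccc
Celf3 downstream start: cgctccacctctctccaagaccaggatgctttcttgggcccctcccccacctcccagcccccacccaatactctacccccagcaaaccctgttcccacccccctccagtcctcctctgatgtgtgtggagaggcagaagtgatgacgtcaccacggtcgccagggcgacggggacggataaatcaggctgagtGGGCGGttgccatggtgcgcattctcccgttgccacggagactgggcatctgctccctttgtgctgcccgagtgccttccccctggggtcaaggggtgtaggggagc
The strings were chosen after the values were seen, since the study's own promoter analysis of genes that were lower with age dealt with SP, EGR and E2F elements. GGGCGG stood in the 3 overlapping downstream windows of Celf3, once in each, and in none of its other 4. It occurred in 10 of 23 windows of 7 member genes, and in 35.7% of all 32851 windows of this length. Celf4 was not looked up, and Rbfox2 had no window, so both are absent from these counts. The string GCGTGGGCG of EGR factors, which can share bases with GGGCGG, was in 0 of the 23 windows and in 0.612% of all. The string TTTGGCGC of E2F factors was in 0 of the 23 and in 0.514% of all. A match is a description of letters, and its part in the level of Celf3 was not tested.

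Levels are given as normalized log2 intensity, a generalized log2 of the spot brightness after variance stabilisation between arrays. It ranks arrays for 1 probe and does not compare probes, and it understates the change of a dim probe. Differences are 29M minus 3M on this scale, with the standard error of the limma fit. All 19 probes were well above the local background on all 8 arrays, and no spot was saturated. The share of spots well above background on an array was 76.2 to 85.0%, lowest on 3M-1. Correlations between arrays over all probes were 0.992 to 0.998. All 16 listed neuronal marker genes were well above background on every array, and 0 of them were called, with a median difference of -0.03. The mean level of these markers ran from 15.95 to 16.14 on the 3M arrays and from 15.96 to 15.99 on the 29M arrays.

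Celf3, a neuronal CELF gene, had 1 probe, A_51_P106591, which was printed at 10 spots on every array. Its level was 13.87, 13.12, 12.53 and 13.43 on 3M-1 to 3M-4, and 10.88, 10.74, 11.01 and 10.45 on 29M-1 to 29M-4. All 4 arrays of 29M lay below all 4 of 3M, and the arrays of 3M were the more spread. The mean was 13.24 ± 0.56 (SD, n = 4) at 3M and 10.77 ± 0.24 (SD, n = 4) at 29M. The difference was -2.47 (SE 0.25), a level 5.54-fold lower at 29M. It was the second lowest difference of 39408 probes tested, after a probe of Hspa4 at -2.60. Since this contrast chose the gene, the rank is a description.

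The separation was present in the brightness before normalization and at each spot. The median over the 10 spots was 14833, 8582, 6073 and 10188 scanner units on the 3M arrays. It was 1896, 1875, 1993 and 1299 units on the 29M arrays, so every aged array was dimmer than every young one without any scaling. After normalization, the lowest of 40 spot readings of 3M was 12.31 and the highest of 40 of 29M was 11.18, a gap of 1.13. Each of the 10 positions on the array gave a difference between -2.70 and -2.38. These spots are repeats of the same probe within an array and not samples, and n remains 4 per age. Celf3 had no other probe to set beside it. The spread of the 10 spots within an array (SD 0.163 on average) was close to that of the 399 probes printed 10 times (median 0.171). Of those 399 probes, 3 were called lower and 12 higher, together 3.76%, and the next lowest after Celf3 was Lmnb1 at -1.06.

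**Figure D1:**
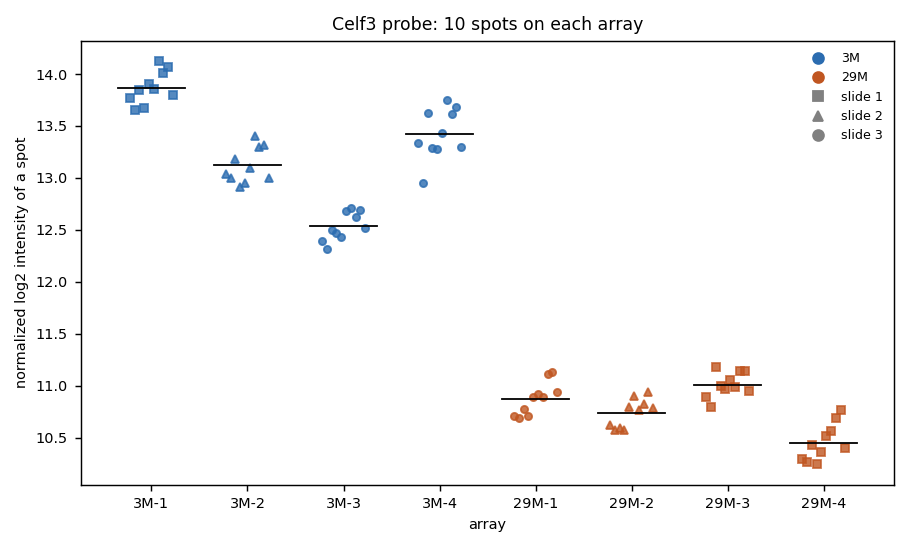
Normalized log2 intensity of the 10 Celf3 spots on each of 8 arrays, with age by colour, slide by symbol and the array mean as a line. The spots of the 3M arrays start at 12.31 and those of the 29M arrays end at 11.18.

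Within a slide the Celf3 difference had the same direction each time. It was -3.14 on slide 1, -2.38 on slide 2 and -2.10 on slide 3. The size on slide 1 rested on 3M-1, the highest array of its group, and without 3M-1 the difference over all slides was -2.25. Over 18 alternative settings it ran from -2.70 to -2.25. These values depend on the recorded assignment of scanner files to samples. In the series table deposited beside them, 4 columns match an array of the other age, and under that assignment 2 arrays of each age would change places and the ages would overlap for Celf3.

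A probe is called where it passes both thresholds of the study, 0.1 for the adjusted p and 0.5 for the size of the log2 difference. Among the 19 member probes, the 1 of Celf3 was called lower, beside 0.751% of all probes tested (296 of 39408). None was called higher, beside 1.21% (476 of 39408), and in either direction the share of all probes was 1.96%. The ages did not overlap in 1 of 19 member probes, again Celf3, beside 11.1% of all probes. A difference larger than 2 standard errors was found in 1 of 19 (5.26%), beside 21.5% of all probes. The median difference was -0.06 over the 19 probes, -0.07 over the 12 CELF probes and -0.06 over the 7 RBFOX probes, beside 0.00 over all probes. As the contrast took part in choosing the genes, nothing is read from these shares.

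**Figure D2:**
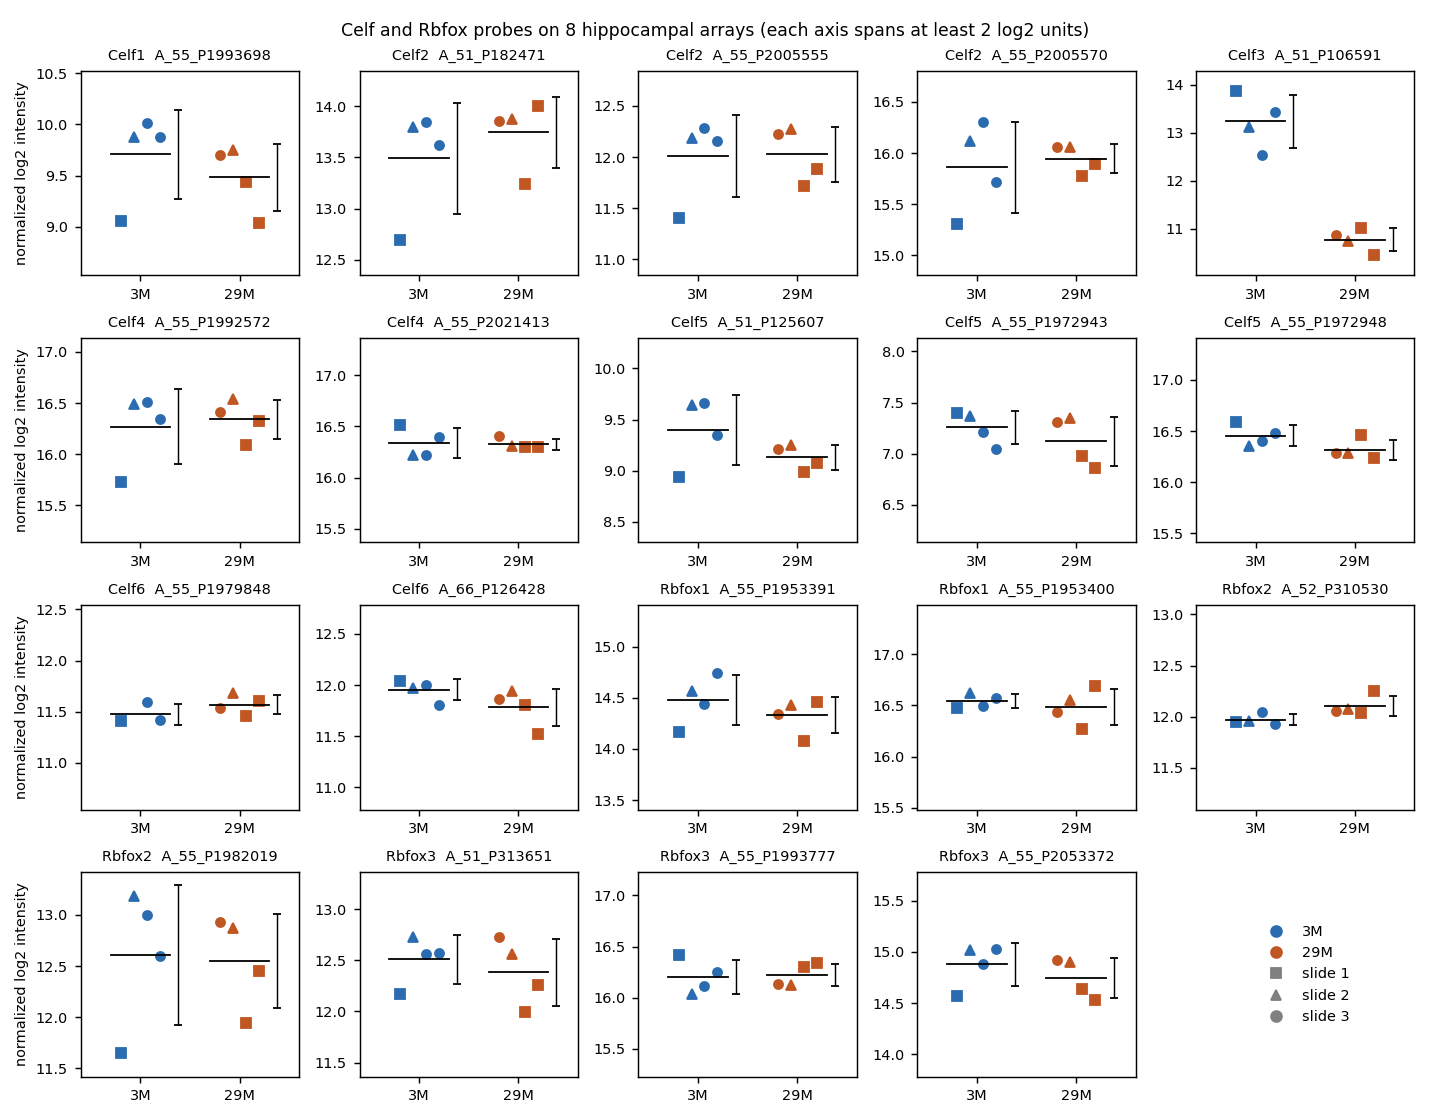
Normalized log2 intensity of the 19 Celf and Rbfox probes on each array, 1 panel per probe, with age by colour, slide by symbol, the group mean as a line and its SD as a bar. The ages are apart in the panel of Celf3, from 12.53 to 13.87 against 10.45 to 11.01, and overlap in the other 18.

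Celf1 and Celf2, the broadly active members, overlapped between the ages. Celf1 (A_55_P1993698) read 9.06, 9.87, 10.02 and 9.87 at 3M and 9.70, 9.75, 9.44 and 9.03 at 29M. The lowest young and the lowest aged array both lay on slide 1, and the difference was -0.23 (SE 0.23). Celf2 had 3 probes. A_51_P182471 read 12.69, 13.80, 13.84 and 13.62 at 3M and 13.86, 13.88, 13.24 and 14.00 at 29M, a difference of 0.25 (SE 0.26) that was -0.01 without 3M-1. A_55_P2005555 read 11.41, 12.18, 12.28 and 12.16 at 3M and 12.22, 12.28, 11.72 and 11.88 at 29M, a difference of 0.02 (SE 0.20). In all 3 probes of Celf2 the array 3M-1 was the lowest of the 8. The third, A_55_P2005570, read 15.31 there and 15.72 to 16.30 on the other 3M arrays, and differed by 0.08 (SE 0.20). Over the 8 arrays the 3 probes moved together, with Pearson correlations of 0.85 to 0.86. These and the other correlations rest on 8 arrays that share slides and scaling, and are descriptions.

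Celf4, a neuronal member linked to excitability, had 2 probes that moved against each other. A_55_P1992572 read 15.73, 16.49, 16.52 and 16.35 at 3M and 16.41, 16.54, 16.09 and 16.32 at 29M, a difference of 0.07 (SE 0.18). A_55_P2021413 read 16.52, 16.22, 16.22 and 16.39 at 3M and 16.41, 16.31, 16.30 and 16.30 at 29M, a difference of -0.01 (SE 0.09). The array 3M-1 was the lowest of the 8 for the first probe and the highest for the second, and the correlation between them was -0.71. Neither probe separated the ages.

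Celf5 and Celf6, the remaining members of the neuronal branch, differed by less than 2 standard errors in each of their 5 probes. The Celf5 probe A_51_P125607 read 8.94, 9.64, 9.66 and 9.35 at 3M and 9.21, 9.26, 8.99 and 9.08 at 29M. Its difference was -0.26 (SE 0.16), the second lowest of the 19, and the array 3M-1 lay below all aged arrays while the other 3 lay above them. Without 3M-1 it was -0.41, still short of the fold threshold. The other Celf5 probes differed by -0.14 (A_55_P1972943, SE 0.13) and -0.14 (A_55_P1972948, SE 0.08). The Celf6 probes had opposite signs, 0.10 (A_55_P1979848, SE 0.09) and -0.17 (A_66_P126428, SE 0.10). For the first of them the spot on 3M-2 was marked as an outlier and left out, so 3M held 3 arrays.

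Rbfox1, which controls exons of channels and synaptic proteins, had probes at -0.15 (A_55_P1953391, SE 0.13) and -0.05 (A_55_P1953400, SE 0.10). Rbfox2, active in many cell types, had probes at 0.13 (A_52_P310530, SE 0.08) and -0.06 (A_55_P1982019, SE 0.33). The latter was the widest spread of the members, with 11.65, 13.19, 13.00 and 12.60 at 3M and 12.93, 12.87, 11.94 and 12.45 at 29M. Its lowest array of each age, 3M-1 and 29M-3, lay on slide 1, and the ages overlapped over nearly the whole range.

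Rbfox3 was of interest as the gene of the neuronal marker NeuN. A_51_P313651 read 12.17, 12.73, 12.56 and 12.57 at 3M and 12.73, 12.56, 11.99 and 12.25 at 29M, a difference of -0.12 (SE 0.17). A_55_P2053372 read 14.57, 15.02, 14.88 and 15.03 at 3M and 14.92, 14.90, 14.64 and 14.53 at 29M, a difference of -0.13 (SE 0.13). A_55_P1993777 read 16.42, 16.04, 16.11 and 16.26 at 3M and 16.13, 16.12, 16.30 and 16.34 at 29M, a difference of 0.02 (SE 0.10). The first 2 probes correlated at 0.87 over the arrays, and the third ran against both, at -0.82 and -0.80. None of the 3 separated young from aged hippocampus.

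**Figure D3:**
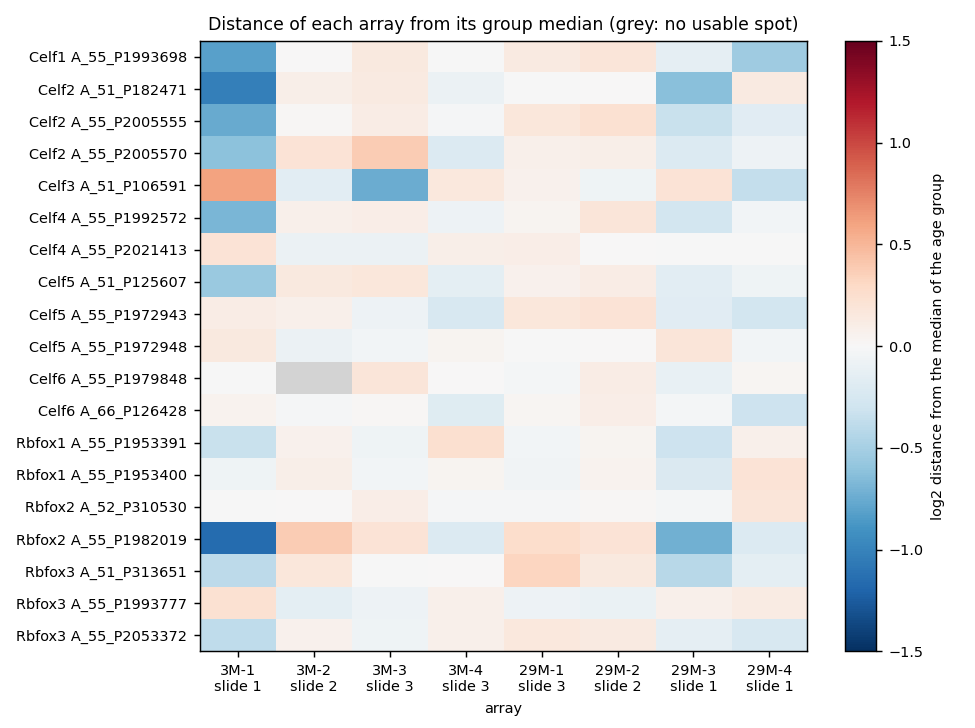
Log2 distance of each array (columns, with its slide) from the median of its age group, for the 19 probes (rows). The column of 3M-1 holds the strongest colours, with a median absolute distance of 0.377.

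In each of the other 18 member probes, arrays of 1 age differed by more than the means of the ages. The array 3M-1 was the lowest of its age in 12 of 19 member probes and the highest in 6. Its median absolute distance from the 3M median was 0.377 over the member probes and 0.109 over all probes. On the 29M side, 29M-3 of the same slide was the lowest in 12 of 19 probes, with a median distance of 0.176 against 0.082 over all probes. On 29M-4, also of slide 1, this distance was 0.152 against 0.085 over all probes. On the arrays of the other slides it was 0.069 to 0.105, against 0.064 to 0.081 over all probes. The part of slide 1 in these distances, and of the lower share of bright spots on 3M-1, was not tested.

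Comparing within slides moved several members by more than their replicate spread, nearly always on slide 1. There, Celf2 differed by 0.93 (A_51_P182471) and 0.53 (A_55_P2005570). Celf4 differed by 0.47 (A_55_P1992572) and -0.22 (A_55_P2021413), and Celf5 by 0.10 (A_51_P125607) and -0.48 (A_55_P1972943). Celf6 (A_66_P126428) differed by -0.38 and Rbfox1 (A_55_P1953391) by 0.10 on the same slide. On slide 3, Celf5 (A_55_P1972943) differed by 0.18, opposite to its sign on slide 1. Slide 1 has 1 young array, 3M-1, so each of its differences rests on that array.

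**Figure D4:**
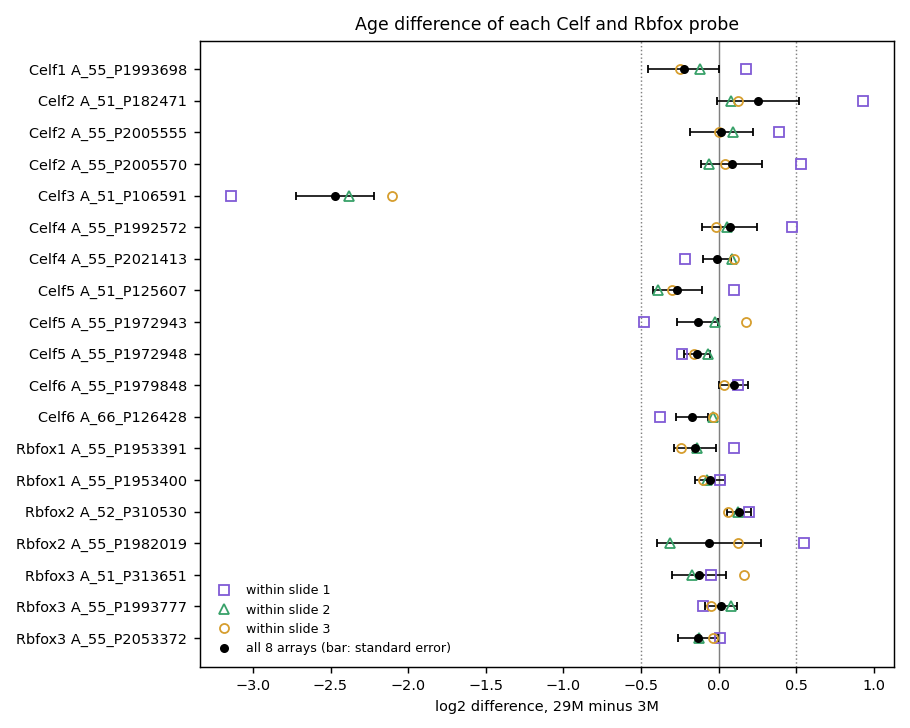
Log2 difference, 29M minus 3M, of the 19 probes: black points with standard error for all 8 arrays, open symbols for the difference within each slide, dotted lines at 0.5 in either direction. Celf3 lies at -2.47 and between -3.14 and -2.10 within slides, while the other 18 lie between -0.26 and 0.25 over all arrays.

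The genes whose pattern over the 8 arrays was most like that of Celf3, by the Pearson correlation of their brightest probe, were Ccny (0.995), Lsm14b (0.986), Islr2 (0.982), Chrna1 (0.977) and Dupd1 (0.977). Ccny, a membrane cyclin, read 9.80, 9.26, 8.41 and 9.29 at 3M and 7.02, 6.73, 6.90 and 6.71 at 29M. It had the same order of the 4 young arrays as Celf3 and differed by -2.35. Lsm14b, an RNA-binding protein of the oocyte and of cytoplasmic granules, differed by -1.11. Islr2 differed by -0.57, Chrna1 by -0.40 and Dupd1 by -0.19. A correlation over 0.95 with Celf3 was found for 38 of 19741 genes. The correlation spans both ages, so a gene that was lower at 29M tends to rank high. The list thus partly restates the contrast that chose Celf3. For Rbfox3 (A_55_P1993777) the 5 genes were Actr6 (0.981), Birc6 (0.978), Dip2c (0.978), Aars (0.974) and Acot9 (0.965), with differences from -0.02 to 0.06. Of all genes, 19 correlated with this probe at over 0.95. It ran against the other Rbfox3 probes (-0.82 and -0.80), so the list describes this probe and not the gene. Among the 3M arrays, all 5 genes were highest on 3M-1.

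Other RNA-binding regulators were examined as a list of 43 genes with 70 probes. The list was broad and held, among others, Esrp1, Esrp2, Rbm20, Rbm24, Fmr1, Msi1, Msi2 and Cpeb1 to Cpeb4. A role in neuronal splicing was not checked for each gene. Probes of Esrp1 (A_55_P2033767) and Rbm20 (A_52_P642626) were well above background on 0 of the 3M arrays. In limma, 0 genes were called in either direction, beside 1.81% of 19742 genes called higher and 0.861% called lower. On the brightest probe, 4 genes were higher and 6 lower at an unadjusted p under 0.05 (limma), beside 9.51% and 7.87% of all genes. The median difference of the brightest probe was 0.02, beside 0.01 over all genes. Elavl2, an RNA-binding protein of neurons, had the probe that came closest by its test, A_55_P2291054. It read 13.59, 13.52, 13.61 and 13.47 at 3M and 13.27, 13.26, 13.18 and 13.22 at 29M. The ages were apart, as they were in 11.1% of all probes. The adjusted p in limma was 0.0632, but the difference of -0.32 (SE 0.07) was under the fold threshold. The second Elavl2 probe (A_55_P2020438) had -0.01 (SE 0.26), and the ages overlapped. Tia1, a regulator of weak splice sites, had a difference of -0.43 (SE 0.11, limma adjusted p 0.0832) on its brightest probe, while its second probe (A_55_P2052370) had 0.28 (SE 0.13).

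The best known of these regulators gave values without a call. Nova1 and Nova2, which control exons of synaptic proteins, had differences of -0.41 (SE 0.17) and -0.36 (SE 0.14). A second probe of Nova1 stood at 0.22 (SE 0.44). Elavl3 had -0.29 (SE 0.14) and Elavl4 -0.06 (SE 0.20) on the brightest probe. The other Elavl4 probe (A_55_P1990309) had -0.48 (SE 0.15). Its ages were barely apart, with 9.378 on the lowest young and 9.377 on the highest aged array. Mbnl1 had 0.02 (SE 0.10), Ptbp2 0.09 (SE 0.08) and Srrm4 0.04 (SE 0.09). Mbnl2, an antagonist of CELF proteins at many exons, had 0.25 (SE 0.11), and Qk, a regulator in glia, 0.49 (SE 0.18), each on the brightest probe. The other probes gave 0.49 (SE 0.62) and -0.03 (SE 0.15) for Mbnl2. For Qk they gave 0.57 (SE 0.70), 0.15 (SE 0.15) and 0.03 (SE 0.17). The array 3M-1 stood out here too: a second Mbnl2 probe (A_51_P189269) read 9.81 on it and 11.92 to 13.08 on the other 7 arrays. A second Qk probe (A_52_P615952) read 7.90 on 3M-1 and 10.31 to 11.56 elsewhere.

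Genes listed as having exons reported to depend on RBFOX or CELF proteins formed a second list of 43 genes with 84 probes. No source is given for the list, and the dependence was not checked here. The total level of these genes, not their exons, was measured. Of these genes, 0 were called higher and 2 lower, beside the shares over all genes given above. On the brightest probe, 5 were higher and 4 lower at an unadjusted p under 0.05 (limma), beside the 9.51% and 7.87% of all genes. The median difference was -0.03. Nrxn2, a presynaptic adhesion protein with many isoforms, read 14.19, 14.55, 14.28 and 14.48 at 3M and 13.55, 13.47, 13.92 and 13.40 at 29M on A_55_P1954067. All aged arrays were below all young ones, with a difference of -0.79 (SE 0.13, limma adjusted p 0.0224). Its brighter probe (A_55_P1954061) had -0.46 (SE 0.08, limma adjusted p 0.0253), under the fold threshold.

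Slc8a1, a sodium and calcium exchanger, was the other gene called lower. Its probe A_55_P2292435 read 6.40, 6.69, 6.64 and 6.72 at 3M and 6.02, 5.88, 6.17 and 5.87 at 29M, a difference of -0.63 (SE 0.10, limma adjusted p 0.0224). This probe was well above background on 3 of 4 arrays of 3M and on 2 of 4 of 29M, so the size of its difference is uncertain: over the settings that tested it, it ran from -1.20 to -0.48. The brighter probe of the gene had -0.15 (SE 0.10). With the replicate number as a block the differences stayed at -0.79 and -0.63, but neither gene was called (limma adjusted p 0.101 for both). Grin1, the obligatory subunit of NMDA receptors, had a difference of -0.16 (SE 0.08). App, the amyloid precursor, had -0.24 (SE 0.10) and Scn8a, a sodium channel, -0.29 (SE 0.14). Camk2d, a calcium-dependent kinase, had 0.38 (SE 0.16) and Mapt, the gene of tau, 0.16 (SE 0.07). Nrcam had -0.14 (SE 0.09) and Ank3, the organiser of the axon initial segment, 0.11 (SE 0.10). Scn8a, Camk2d, Mapt and Ank3 had 3 probes each, and the value of 1 of them is given.

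**Figure D5:**
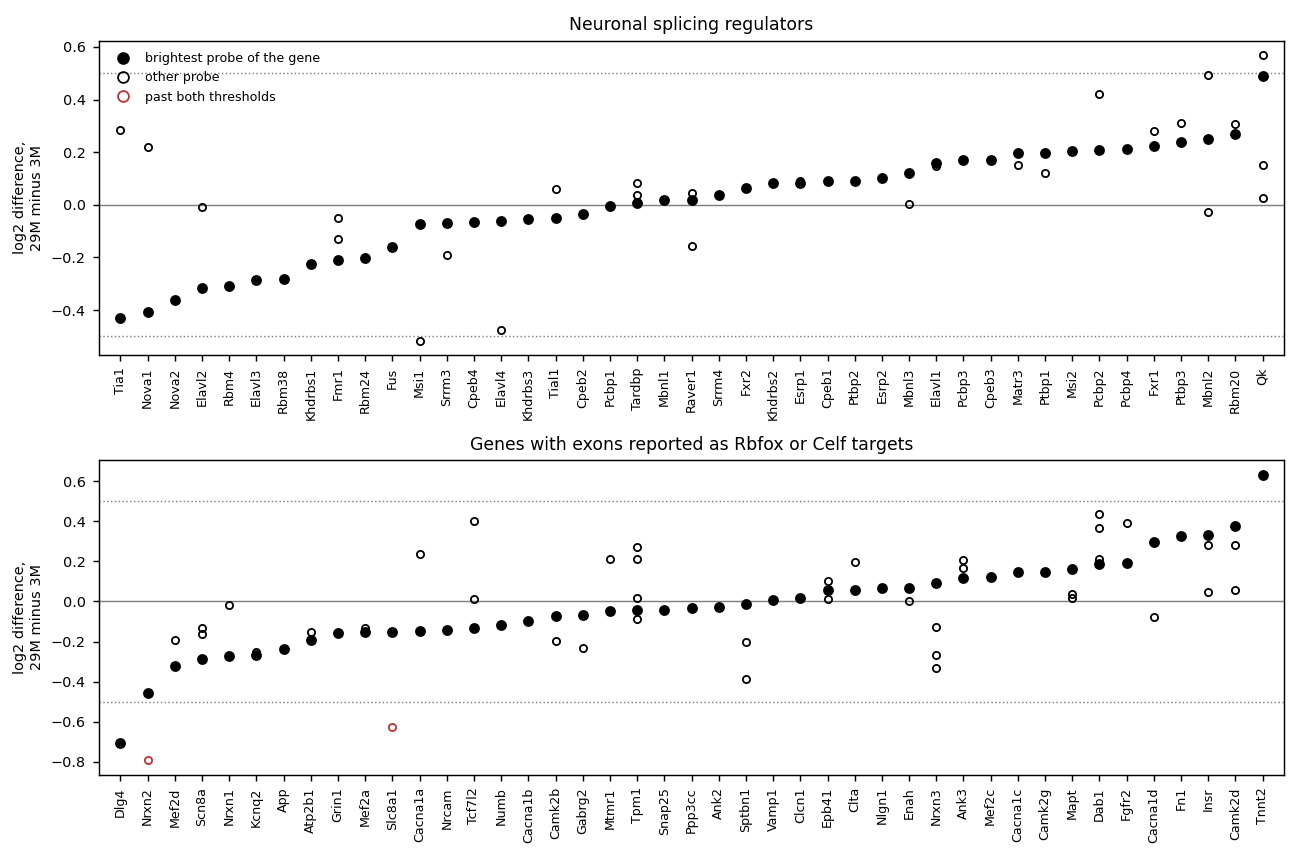
Log2 difference, 29M minus 3M, for every probe of the listed regulators (top) and of the genes with reported target exons (bottom), ordered by the brightest probe. Dotted lines mark 0.5 in either direction, and the 2 red points, Nrxn2 at -0.79 and Slc8a1 at -0.63, are the called probes.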

How the data were processed

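RNA of 4 hippocampal samples of 3M and 4 of 29M mice was hybridised to 1-colour Agilent arrays. Per the file headers, the authors deposited the scanner output of Feature Extraction 10.7.3.1, which holds linear spot intensities before any normalization. The headers differ from the study's methods in software version, scanner and array design, and were followed. The scanner output at hand held no mean spot intensity, so the median spot intensity was taken. The 8 columns of the deposited series table are intensities too, but each matched the mean local background of an array (tolerance 0.001). In 7 columns that array was another sample's than the column names, and in 4 of another age. The table was not used as expression, and the recorded assignment of each scanner file to its sample was followed. If the table named the arrays rightly, 2 arrays of each age would carry the other age, and every difference given here would change.

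Control spots and spots marked as outliers were left out. Variance stabilising normalization followed the study's methods and was fitted in R 4.3.3 by an own implementation (least trimmed squares, quantile 0.9, 7 iterations). Spots of 1 probe were averaged, and probes needed at least 3 usable arrays per age. Age was fitted in limma 3.58.1 (lmFit, eBayes), with Benjamini-Hochberg adjustment over 39408 probes. Calls required an adjusted p under 0.1 together with a log2 difference of 0.5 or more in size (1.414-fold). Tested on simulated data for 29M against 3M with 39429 probes, 92.5% of 200 changed probes were recovered, and 6.57% of the calls were false. Both rates belong to the simulated data, and whether they hold for the measured arrays was not tested. Every planted change was at least 1 log2 unit in size, and no slide effect was planted. The share recovered therefore says nothing about smaller differences, such as those of the probes not called here. The number of arrays limits the precision.

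Accessions were matched to RefSeq genes of GRCm38.p6, which named 26055 of 39429 probes (66.1%). The arrays were designed on another build, so no probe coordinates are given. The members and both gene lists were chosen with earlier results of these data known. Named genes were all member probes, every called gene of the lists, and the best known regulators and targets. Also named were the 5 genes most like the brightest probe of Celf3, and of Rbfox3, over the arrays. Tia1, Dlg4, Msi1, Esrp1, Rbm20 and the other probes of Mbnl2, Qk, Nova1, Elavl2 and Elavl4 were named after their values were seen. Slides were read from the array headers. Alternatives were other normalizations, keeping outlier spots, bright probes only, slide or replicate number as a block, another prior, array weights, and leaving out each array.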

Additional observations from a re-analysis of the deposited data

Results flagged for a closer look

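In 3 of the 37 groups of 4 arrays tested among the member probes, 1 array stood far from the other 3, where chance alone would give 1.85. The gap to the nearest array was 0.850 of the range for Celf1 (A_55_P1993698) at 3M, where 3M-1 was low, and 0.860 for Celf2 (A_55_P2005555) at 3M, again with 3M-1 low. It was 0.902 for Celf4 (A_55_P2021413) at 29M, where 29M-1 was high, within a group that spanned 16.30 to 16.41.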

How the results depend on the processing

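The count of member probes called was 1, that of Celf3, in all 18 alternatives, which describes the contrast that chose the genes. The Celf3 difference within slide 1 was -3.14, and leaving out 1 array gave -2.70 to -2.25. The other 18 member probes were not called in any of them, and in 9 of them the difference changed sign with the setting. It ran from -0.37 to 0.16 for Rbfox2 (A_55_P1982019), and for Celf2 (A_51_P182471) it was 0.25 in the reported processing and -0.01 without 3M-1.
The count of listed regulators called lower, 0 in the reported processing, was 1 with array weights. With 1 array left out it was 0 to 1. Nova1 was the gene with array weights (-0.60) and without 3M-1 (-0.56), and Msi1 without 29M-3 (-0.77). Of the genes with reported target exons, 2 were called lower, and 1 (Nrxn2) with the 75th percentile scaling, with normexp and quantile normalization, and with bright probes only, where the probe of Slc8a1 was not tested. Slc8a1 had -1.20 (limma adjusted p 0.113) with the first and -0.48, under the fold threshold, with the second. Over all 18 settings Nrxn2 had -0.90 to -0.69. Without 3M-1 it was 3, with Dlg4 (-1.08) added, and leaving out any other array gave 2.
With the replicate number as a block, 0 target genes were called lower, with the same differences and an adjusted p of 0.101 for both, and over all probes 275 were called higher and 159 lower, instead of 476 and 296. Deviations of same-numbered arrays correlated at -0.26, 0.22, -0.25 and 0.08, so the numbers were not taken as pairs. The array 3M-1 correlated best with 29M-3 (0.42), which shares its slide, but at 0.03 with 29M-4 of the same slide. On slide 3, 29M-1 correlated with 3M-3 at 0.12 and with 3M-4 at 0.04. The arrays 3M-2, 3M-3 and 3M-4 correlated best with an array of another slide (0.23, 0.28 and 0.08). The call of Celf3 was kept with the replicate number as a block. Over all probes, array weights gave 784 higher and 576 lower, and leaving out 1 array gave 258 to 802 higher and 132 to 587 lower, the highest counts without 3M-1 and the lowest without 3M-2.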

Other observations

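The genes beside Celf3 in the order of the RefSeq annotation did not share its difference. On 1 side stand Riiad1, Mrpl9, Oaz3, Tdrkh and Lingo4, and on the other Snx27, Tuft1, Selenbp2, Cgn and Pogz. In limma, 0 of the probes of the 9 neighbours with a matched probe were called, with differences from -0.26 (SE 0.11) for Riiad1 to 0.30 (SE 0.13) for Tuft1.

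Markers of other cells of the hippocampus were followed beside the neuronal list. Of 9 markers of hippocampal neurons, 0 were called, with a median difference of 0.04. Of 8 astrocyte markers 1 was called higher, with a median of 0.01, and of 8 microglial markers 1 was called higher, with a median of 0.35. Of 4 markers of oligodendrocyte precursors 1 was called lower, with a median of -0.08. Of 9 T and B cell markers 3 were called higher, with a median of 0.16. Of 8 oligodendrocyte markers 0 were called, with a median of 0.18. Over all genes, 1.81% were called higher and 0.861% lower. None was called among the endothelial, choroid plexus, meningeal, ependymal and red blood cell markers. Their medians were 0.11, 0.15, 0.25, -0.07 and -0.32. Choroid plexus markers averaged 13.85 to 15.36 on the 3M arrays and 14.43 to 14.80 on the 29M arrays. The part of these cells in the level of Celf3 was not tested.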
